A study of Mus musculus with 24 samples.

Results

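The change in transcript levels from early to late night was examined in the mediobasal hypothalamus of sleep-restricted mice, as ZT19 minus ZT13, where ZT is zeitgeber time in hours after lights on. The comparison used 6 of the 24 arrays of the series, 3 at each time, and all probe sets that carry exactly 1 gene symbol. These gave 19938 genes, of which 11963 passed a filter on mean signal over all 24 arrays (5.84 on the log2 scale) and were tested. Mice of background strain C57BL76J, as the labels spell it, were kept awake by gentle handling between ZT0 and ZT6 on 5 days in succession. They had 2 days of undisturbed sleep and then 5 more days of handling, and control mice were left alone. Both groups of the comparison had this treatment and are labelled with different times of tissue collection. Age, sex and the day of collection were not stated in the labels. Each group held 3 mice by the series description. The p-values cover only how far these samples lie apart, and that spread may be technical in part.

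The mediobasal hypothalamus holds the arcuate and ventromedial nuclei, which control appetite and energy use, around the base of the third ventricle. The ventricle is lined by ependymal cells, whose motile cilia move cerebrospinal fluid, and by tanycytes. Other nuclei lie close by. The suprachiasmatic nucleus in front is the central circadian clock, and its neurons are coupled by peptides such as vasoactive intestinal peptide. The paraventricular nucleus above makes oxytocin, vasopressin and thyrotropin-releasing hormone. In every cell the clock runs as a loop in which PER and CRY proteins repress their own activators, CLOCK and BMAL1. In nocturnal mice, ZT13 lies just after lights off, when glucocorticoids are near their daily peak, and ZT19 in the second part of the night.

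Of the 24 arrays, 20 had a typical spread of signal, with an interquartile range of 2.96 to 3.29 log2 units. ZT13 replicate 2 of the restricted mice was narrower, at 2.25, and its median rank correlation with the typical arrays was 0.88, against 0.977 to 0.986 among those. The other narrow arrays were restricted ZT1 replicate 3 and control ZT19 replicates 2 and 3. Every result is therefore given from 20 typical arrays, with 2 arrays at ZT13 and 3 at ZT19, and the main ones also from all 24. Leaving out ZT13 replicate 2 alone, with the other narrow arrays kept, gave far fewer calls, and these are stated below. As a check of the tissue, 9 of 14 markers of the arcuate and ventromedial nuclei were tested, and their mean signal lay between 6.63 and 6.73 on the 5 typical arrays. Tac2, the arcuate neurokinin B gene, lay between 8.10 and 8.73. Pomc, the arcuate melanocortin precursor, lay between 5.32 and 5.52, below the filter. The files give no detection calls, so signals near or below the filter are not shown to exceed background.

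In the 20 typical arrays 126 genes were higher and 135 lower at ZT19, 261 in all, at an adjusted p under 0.05 (limma, Benjamini-Hochberg over all genes). That is 2.18% of the genes tested, 1.05% higher and 1.13% lower. The median size of a called difference was 0.456 log2 units, and 9 genes differed by at least 1 log2 unit, 8 of them higher. In all 24 arrays 8 genes were higher (0.0669%) and 0 lower, against 283 higher and 136 lower at an unadjusted p under 0.05. Together these unadjusted counts are below a 0.05 share of the genes tested, the share that this threshold passes by chance. The 8 were Vipr2, Stoml3, Prokr2, Hydin, Fam216b, Dnah11, Pkib and Spata18, and the typical arrays called each of them higher too. The narrow array moved the background itself. The median difference over all genes was 0.238 with it and -0.0107 in the typical arrays. The median residual SD was 0.361 in 24 arrays and 0.111 in the typical arrays, which leave out all the narrow arrays. With ZT13 replicate 2 alone left out, 4 genes were called, 3 higher and 1 lower. An unadjusted limma p under 0.05 was found for 163 genes, again below a 0.05 share. The 261 calls therefore rest on leaving out the narrow arrays of other groups too. Of the 261 genes, 219 kept the sign of their difference in all 24 arrays, while 2 of the higher and 40 of the lower genes did not. Where a named gene is among these, its 24-array value is given. With 3 arrays against 3, ZT19 lay wholly above ZT13 in 10.6% of genes and wholly below in 3.31%. Among the called genes, 113 of the 126 higher and 23 of the 135 lower genes were separated in this way.

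**Figure D1:**
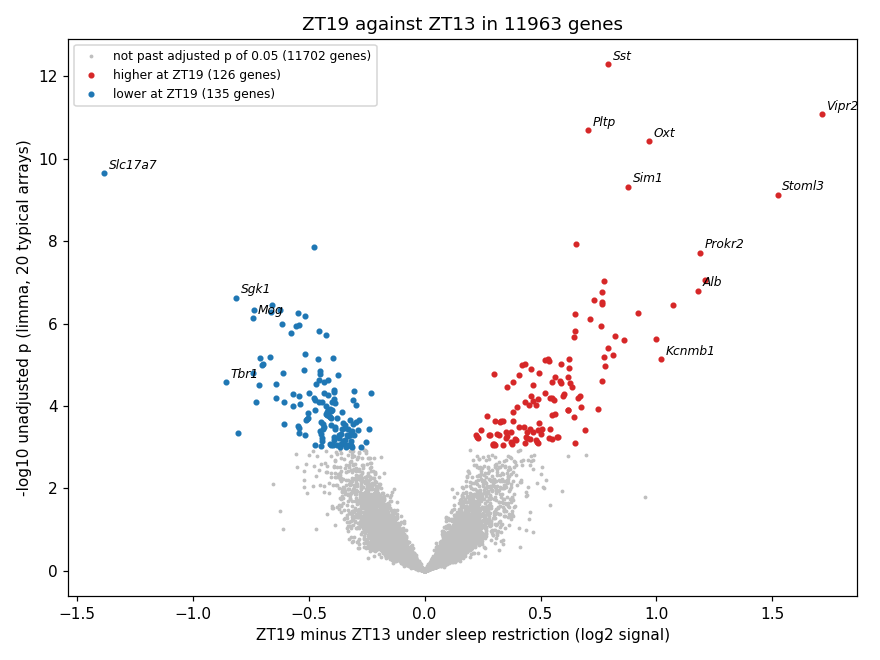
Each point is 1 of 11963 genes, placed by its log2 difference at ZT19 minus ZT13 under sleep restriction (horizontal) and by -log10 of its unadjusted limma p in 20 typical arrays (vertical). Red points are the 126 genes called higher and blue points the 135 called lower, with Vipr2 at 1.71 and Slc17a7 at -1.38 as the widest on each side.

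Counts in the typical arrays depend on the pair at ZT13. They fell to 94 called genes without ZT13 replicate 1, to 82 without ZT13 replicate 3, to 160 without ZT19 replicate 3 and to 172 without ZT19 replicate 2. Of 95 called genes followed by name, 28 were still called whichever of the 5 arrays was left out, 21 higher and 7 lower. The higher ones were Ak7, Alb, Ccdc153, Cfap43, Cfap44, Dnah12, Fam216b, Hydin, Oxt, Pltp, Prokr2, Sim1, Six6, Spata18, Sst, Stoml3, Syt10, Tmem212, Trh, Vipr2 and Zic4. The lower ones were Mog, Myo1d, Ndufs8, Pvalb, Sgk1, Slc17a7 and Zbtb16. With all 24 arrays, Vipr2 and Stoml3 were called whichever of the 24 was left out, and Prokr2 in 23 of 24 cases. The calls of Hydin (11 of 24 cases), Fam216b (8), Spata18 (5), Dnah11 (3) and Pkib (3) were lost in most of them. With ZT13 replicate 2 alone left out, 2 of 11 suprachiasmatic and 1 of 10 tanycyte and ependymal genes of the lists below were called higher. None of 6 paraventricular and supraoptic, 30 axoneme, 12 myelin and 13 glucocorticoid-responsive genes was called. The medians of these lists equal those of the typical arrays by construction, since the same 5 arrays give each difference.

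Genes of the suprachiasmatic nucleus were higher at ZT19. Of 13 markers, 11 were tested, and 8 rose and 0 fell, against 1.05% higher among all genes, with a median difference of 0.55. The 2 not tested, the peptide genes Vip and Nms, lay below the filter. The rise was led by Vipr2, the receptor for vasoactive intestinal peptide through which clock neurons are coupled. Vipr2 (chr12:116077420-116148637, GRCm38.p6) had signals of 6.52, 6.0 and 6.71 at ZT13 and of 8.34, 8.28 and 8.35 at ZT19. All 3 arrays at ZT19 lay far above all 3 at ZT13, with the narrow array lowest. The difference was 1.71 ± 0.121 (SE, n = 2 and 3; limma adjusted p = 4.93e-08), a 3.28-fold rise, and 1.92 ± 0.201 in all 24 arrays (adjusted p = 8.09e-05).

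Prokr2, the receptor for prokineticin 2, a peptide output of this nucleus, had signals of 6.90, 6.16 and 6.99 at ZT13 and 8.06, 8.25 and 8.10 at ZT19. The groups did not overlap, and the difference was 1.19 ± 0.132 (limma adjusted p = 2.29e-05), or 1.45 in all 24 arrays (adjusted p = 0.00518). Prok2, the gene for the ligand itself, went the other way without passing the test, at -0.30 ± 0.118 (adjusted p = 0.277). Six6, a homeobox factor needed to form the nucleus, had signals of 5.88, 6.09 and 5.74 at ZT13 and 7.24, 6.46 and 6.73 at ZT19. The ZT13 signals straddled the filter level, and ZT19 replicate 1 was the highest. Its difference was 1.0 ± 0.153 (adjusted p = 0.000729).

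The other 5 risers were smaller. Syt10, a synaptotagmin of the vesicle release machinery, rose by 0.65 from 9.50 and 9.59 in the typical ZT13 arrays to between 10.12 and 10.28. Avpr1a, the vasopressin receptor that couples clock neurons, rose by 0.56 and Rasd1, a small GTPase that shapes light responses of the clock, by 0.55. Zfhx3, a zinc-finger homeobox factor of the nucleus, and Rgs16, a regulator of G-protein signalling, each rose by 0.38. Grp at 0.31 and Lhx1 at 0.30 did not pass the test. Without ZT13 replicate 3, 4 of the 11 markers were called, and 2 of the 11 were called in 24 arrays. Their mean signal was 6.98 and 7.04 in the typical ZT13 arrays and between 7.58 and 7.70 at ZT19. The groups of values are separate, and the narrow ZT13 array was lower still, at 6.54. Taken singly with 3 arrays against 3, 10 of the 11 genes had no overlap upward, against 10.6% of all genes. The other 1 had no overlap downward, against 3.31%. In bulk tissue, fewer cells of a type and less RNA per cell cannot be told apart, and this holds for every marker list below.

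**Figure D2:**
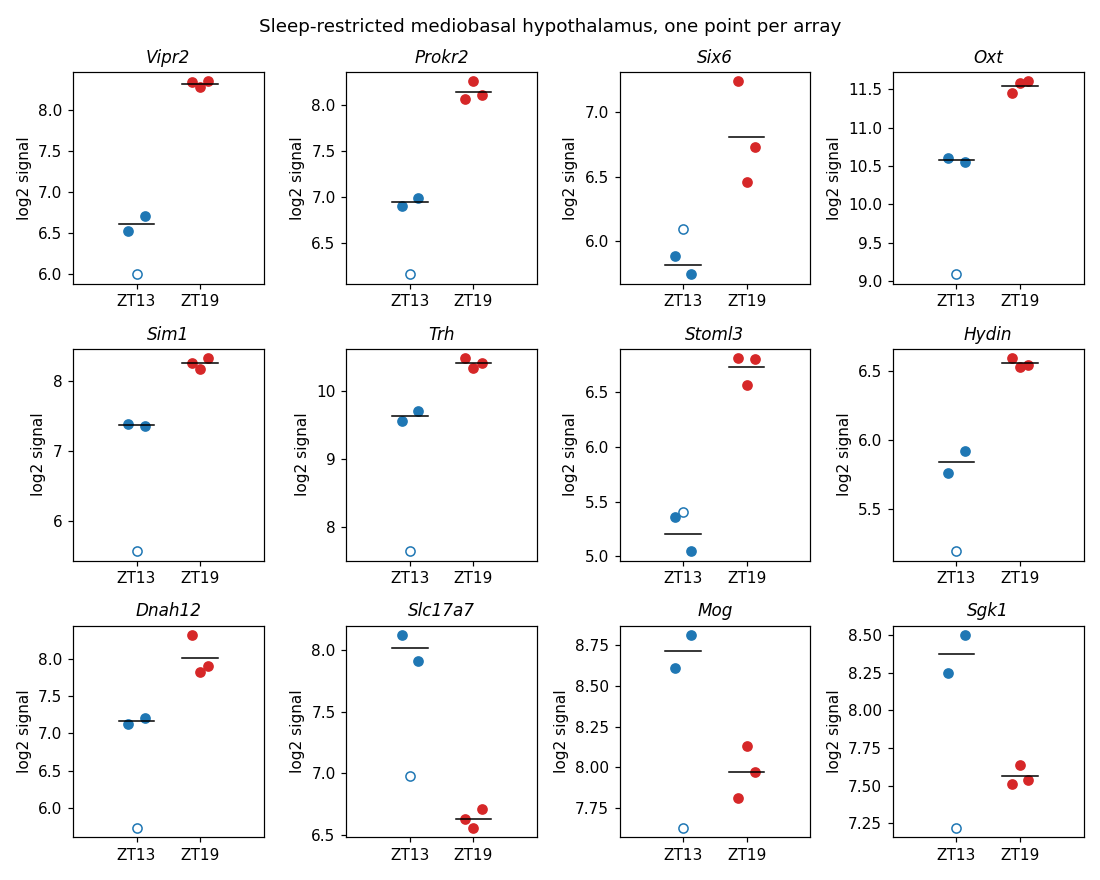
Log2 signal (vertical axes, each on its own range) of 12 genes in each of the 6 arrays of sleep-restricted mice at ZT13 and ZT19. Filled points are typical arrays, the open point is the narrow array ZT13 replicate 2, and lines are means of typical arrays. Vipr2, Prokr2, Oxt, Sim1 and Stoml3 have every ZT19 point above every ZT13 point, while in Mog and Sgk1 the narrow array lies below ZT19 and the typical ZT13 arrays above it.

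Genes of the paraventricular and supraoptic nuclei were higher as well, with a median of 0.57, or 0.37 for the list with no filter. Of 6 tested members 3 were called, against 1.05% called higher among all genes. Oxt, which encodes oxytocin (chr2:130574519-130577054), had signals of 10.60, 9.09 and 10.55 at ZT13 and of 11.45, 11.58 and 11.60 at ZT19. The ZT19 arrays agreed closely and stood above all of ZT13. The difference was 0.97 ± 0.0746 (limma adjusted p = 1.12e-07), a 1.95-fold rise. Sim1, the transcription factor that specifies paraventricular neurons, went from 7.38, 5.57 and 7.36 to 8.25, 8.17 and 8.32. Its difference was 0.88 ± 0.0783 (adjusted p = 9.64e-07). Trh, the precursor of thyrotropin-releasing hormone, went from 9.56, 7.65 and 9.71 to 10.48, 10.34 and 10.41, a difference of 0.77 ± 0.0951 (adjusted p = 9.33e-05). Avp (vasopressin) at 0.20, Magel2 at 0.37 and Otp at 0.24 did not pass. In all 24 arrays 0 of the 6 were called. The 3 risers stayed called without any 1 of the 5 typical arrays.

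Further rises were seen in genes of other hypothalamic neurons. Sst, which encodes somatostatin, the inhibitor of growth hormone release, had signals of 11.65, 10.83 and 11.69 at ZT13 and 12.54, 12.43 and 12.42 at ZT19. The difference of 0.79 ± 0.0483 had the smallest p of the comparison (limma adjusted p = 6.03e-09). The Zic transcription factors, a family taken up after its values were seen, had 3 of 4 tested members higher, against 1.05% of all genes. Zic4 rose by 0.76, Zic2 by 0.67 and Zic1 by 0.60, while Zic5 at 0.28 did not pass the test. Zic1 and Zic4 overlap at their ends on chromosome 9, so their signals may not be separate. Without ZT13 replicate 1, 1 of the 4 was called. Of 9 tested arcuate and ventromedial markers 1 was called higher, against 1.05% of all genes. It was Fezf1, a ventromedial zinc-finger factor that rose by 0.63. The median of the 9 markers was 0.00808. Tac2 at -0.36, Npy at -0.16 and Kiss1 at 0.01 did not pass. Among 11 appetite peptides Sst alone was called, against 1.05% called higher among all genes. Cartpt at 0.20 and Gal at -0.14 were among those that did not pass. Of 16 feeding receptors 1 was called, against 1.13% called lower among all genes. It was the melanocortin receptor gene Mc4r, which fell (-0.50 ± 0.107, limma adjusted p = 0.0127), though its narrow ZT13 array at 6.70 lay below all of ZT19. Among the 5 typical arrays, Mc4r kept its call only without ZT19 replicate 3.

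The second group of rises was formed by genes of ependymal cells and their motile cilia. Of 10 tested markers of tanycytes and ependyma, 5 rose and 0 fell, against 1.05% higher among all genes. The members of this and the other lists were chosen with earlier results of these data known, so such shares are not independent tests. The median of the 10 markers was 0.53, or 0.30 for the list with no filter. The same count of 5 risers was found without ZT13 replicate 1 or ZT13 replicate 3. Stoml3, a stomatin-like membrane protein of motile cilia (chr3:53488707-53508863), had signals of 5.36, 5.41 and 5.05 at ZT13 and of 6.81, 6.57 and 6.80 at ZT19. Here the narrow array was the highest at ZT13 by a small margin, and the ZT13 signals lay below the filter. The difference was 1.52 ± 0.140 (limma adjusted p = 1.3e-06), and 1.46 ± 0.184 in all 24 arrays (adjusted p = 0.000789). Hydin, a structural protein of the central pair of microtubules, went from 5.76, 5.20 and 5.92 to 6.59, 6.53 and 6.54. Its difference was 0.71 ± 0.101 (adjusted p = 0.000329), and 0.93 in all 24 arrays (adjusted p = 0.0312). Spata18 rose by 0.92, Tmem212 by 0.82 and Ccdc153, an ependymal marker, by 0.59. Of the members known from tanycytes, Vim at 0.27, Crym at 0.30, Col23a1 at 0.13 and Gpr50 at -0.45 did not pass. Foxj1, the regulator of motile ciliogenesis, was at 0.47 ± 0.141 (adjusted p = 0.105).

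Proteins of the axoneme, the microtubule core of the cilium, were gathered by family name after the values had been seen. Of 30 tested members of the Dnah, Cfap and Rsph families, 13 were called higher and 0 lower, with a median of 0.38, against 1.05% higher among all genes. The largest was Dnah12, a dynein heavy chain, with signals of 7.12, 5.73 and 7.20 at ZT13 and 8.32, 7.82 and 7.91 at ZT19 (0.86 ± 0.132, adjusted p = 0.000732). Dnah6 rose by 0.78, Cfap43 by 0.77, Rsph4a by 0.77, Dnah3 by 0.60, Dnah11 by 0.59 and Dnah5 by 0.48. With all 24 arrays Dnah11 alone of the 30 was called (0.63 ± 0.118, limma adjusted p = 0.0487). Without ZT13 replicate 1 the count of called members was 4, and without ZT13 replicate 3 it was 6. Outside these lists, Fam216b rose by 1.21, from 5.84, 4.55 and 6.09 to 7.14, 7.32 and 7.07. Ak7, an adenylate kinase of motile cilia, rose by 1.07 and Pkib, an inhibitor of protein kinase A, by 0.79.

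Promoter sequence was available in RefSeq (GRCm38.p6) for 16 of the 20 called genes of the ependymal and axoneme lists with Fam216b and Ak7 added. Each window runs from 250 bases before to 50 bases after the start of transcription. RFX transcription factors, which drive ciliary genes, bind the X-box, and its letters, GTNNCC followed after 5 further bases by AAC, were searched on both strands. They occurred in 4 of the 16 windows, against 3.93% of 27025 promoters in the table and 4.35% of those of tested genes. Among all called genes with a window, 13 of 103 higher genes and 3 of 109 lower genes held them. The 4 windows are printed with the match in capitals, and each lies on the plus strand, at chr9:44240427-44240726 for Ccdc153, chr16:44394549-44394848 for Cfap44, chr2:145934534-145934833 for Cfap61 and chr8:110266727-110267026 for Hydin.
Ccdc153: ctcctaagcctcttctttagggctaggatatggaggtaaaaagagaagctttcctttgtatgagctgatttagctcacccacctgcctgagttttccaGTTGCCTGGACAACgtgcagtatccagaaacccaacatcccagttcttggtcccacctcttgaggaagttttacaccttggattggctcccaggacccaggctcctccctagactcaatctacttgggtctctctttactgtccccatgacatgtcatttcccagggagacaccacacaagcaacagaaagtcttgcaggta
Cfap44: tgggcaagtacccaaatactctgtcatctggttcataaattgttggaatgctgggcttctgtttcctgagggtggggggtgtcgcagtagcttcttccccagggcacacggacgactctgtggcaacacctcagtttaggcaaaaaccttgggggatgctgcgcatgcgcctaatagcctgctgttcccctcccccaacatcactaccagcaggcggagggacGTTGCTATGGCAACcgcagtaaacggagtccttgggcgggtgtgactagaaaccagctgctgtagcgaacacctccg
Cfap61: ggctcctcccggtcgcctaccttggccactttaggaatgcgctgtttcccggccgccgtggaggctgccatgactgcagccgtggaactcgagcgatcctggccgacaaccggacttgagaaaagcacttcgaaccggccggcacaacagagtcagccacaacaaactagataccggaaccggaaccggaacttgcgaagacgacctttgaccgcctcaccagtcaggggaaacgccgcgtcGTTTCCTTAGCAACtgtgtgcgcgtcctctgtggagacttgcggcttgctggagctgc
Hydin: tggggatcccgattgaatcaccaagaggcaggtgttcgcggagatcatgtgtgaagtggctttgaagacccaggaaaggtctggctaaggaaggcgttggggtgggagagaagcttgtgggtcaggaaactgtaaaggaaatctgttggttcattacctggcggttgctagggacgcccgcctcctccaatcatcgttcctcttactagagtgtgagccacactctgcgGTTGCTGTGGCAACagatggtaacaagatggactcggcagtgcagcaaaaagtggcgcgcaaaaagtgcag
In Cfap44, Cfap61 and Hydin the match begins at -27, -8 and -21 relative to the start, and in Ccdc153 at -152. The letters are read on the minus strand in Cfap44 and Hydin. The rise of Cfap61 (0.65, adjusted p = 0.0394) lost its call without any 1 of the 5 typical arrays. This form of the X-box was 1 of 4 searched, and was printed after the counts were seen. The shorter GTTGCC was in 3 of the 16 windows, against 12.7% of all promoters, and both other forms were in 0. Of 11 motifs searched, another was the E-box CACGTG, which clock activators bind. It was in 0 of 7 available windows of the called suprachiasmatic genes, against 7.24% of all promoters. The cyclic-AMP response element TGACGTCA was in 0 of those 7 as well, against 1.88%. Matches and their absence describe only these letters in these windows.

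Markers of regions outside the hypothalamus moved between the times too. Slc17a7, the vesicular glutamate transporter of cortex and parts of thalamus, had the largest fall of all tested genes. Its signals were 8.12, 6.98 and 7.91 at ZT13 and 6.63, 6.56 and 6.71 at ZT19, with no overlap and the narrow array nearest to ZT19. The difference was -1.38 ± 0.118 (limma adjusted p = 5.4e-07), a 2.61-fold fall, and -1.04 ± 0.212 in 24 arrays (adjusted p = 0.0799). Tbr1, a transcription factor of cortical glutamate neurons, fell by 0.86 and Tcf7l2, a thalamic factor, rose by 0.35. The other 5 of 8 tested markers of thalamus and cortex, among them Calb2 at 0.46 and Cux2 at -0.02, did not pass. Of these 8, 2 were called lower and 1 higher, against 1.13% and 1.05% of all genes. Of 8 markers of striatum and basal forebrain, 3 fell and 1 rose, against 1.13% lower and 1.05% higher among all genes. The fallers were the cholinergic genes Lhx8 (-0.74), Slc18a3 (-0.71) and Slc5a7 (-0.64), and the riser was Drd1, a dopamine receptor gene (0.55). Lhx8 had signals of 7.19, 7.07 and 7.47 at ZT13 and 6.51, 6.54 and 6.72 at ZT19, again with no overlap. Without ZT13 replicate 3, 0 of the 8 were called in either direction, and Tcf7l2 lost its call without any 1 of the 5 typical arrays. The mean signal of the 8 striatal and basal forebrain markers was 7.65 and 7.82 in the typical ZT13 arrays and 7.47 to 7.55 at ZT19. That of the 8 thalamic and cortical markers was 7.43 and 7.5 at ZT13 and 7.28 to 7.34 at ZT19. The part of such regional markers in the rises and falls of other genes was not tested.

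Pvalb, which marks fast-spiking interneurons, fell by 0.71, from 6.57, 6.50 and 6.53 to 6.04, 5.71 and 5.76. Lhx6, a factor of the same interneuron lineage, fell by 0.45. Crhr1, the receptor for corticotropin-releasing hormone, fell by 0.44 and the synaptic adhesion gene Lrrc4 by 0.40, and both had every ZT19 array below every ZT13 array. Both lost the call without ZT13 replicate 1 or ZT13 replicate 3, and Crhr1 also without ZT19 replicate 3. Crhr1 and Lrrc4 were not among the 12 falls singled out, which include Slc17a7, Lhx8, Slc18a3, Pvalb and Lhx6. The rest of the 12 were Alox8, Mab21l1, Prodh, Myo1d, Hapln2, Myrf and Ndufb11, which fell by 0.45 to 0.61. In these the narrow array lay above ZT19 too, which was part of how they were chosen. These 12 are the largest falls among genes with no overlap of 3 arrays against 3 and the same sign in 24 arrays, and outside that rule Tbr1, Sgk1, Mog, Zbtb16 and Slc5a7 fell by more than most of them. Of the 12, Slc17a7, Pvalb and Myo1d stayed called without any 1 of the 5 typical arrays. The other 9 were lost without ZT13 replicate 1, ZT13 replicate 3 or both, and Alox8, Mab21l1 and Prodh also without 1 or more arrays at ZT19.

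Myelin genes were lower at ZT19 in the typical arrays. Of 12 tested members, 10 fell and 0 rose, against 1.13% lower among all genes. The median was -0.50 against -0.0107 over all genes. Mog, a glycoprotein of the outer myelin surface (chr17:37010740-37023398), had signals of 8.61, 7.63 and 8.81 at ZT13 and of 7.81, 8.13 and 7.97 at ZT19. The typical ZT13 arrays were above all of ZT19, while the narrow array was below. The difference was -0.74 ± 0.104 (limma adjusted p = 0.000319), and -0.38 ± 0.446 in 24 arrays (adjusted p = 0.644). Mbp, the main structural protein of compact myelin, fell by 0.39, from 10.13 and 10.35 to between 9.80 and 9.94. Ermn fell by 0.57, Ugt8a, which makes myelin galactolipids, by 0.54, Mal and Mag by 0.52, Aspa and Mobp by 0.50, Cnp by 0.48 and Cldn11 by 0.42. Opalin at -0.29 and the lineage factor Sox10 at 0.17 did not pass. Myrf, the factor that switches on myelin genes, fell by 0.47, and its 3 ZT13 arrays (7.49, 7.57 and 7.48) all lay above ZT19 (7.07, 7.10 and 6.88). Hapln2, a link protein at nodes of Ranvier, fell by 0.61. Of 8 genes of oligodendrocyte precursors and immature cells, Enpp6 (-0.61) and Bcan (-0.33) fell, against 1.13% lower among all genes. Both lost the call without ZT13 replicate 1, ZT13 replicate 3 or ZT19 replicate 3, Bcan also without ZT19 replicate 2, and in 24 arrays Bcan was at 0.09. Without ZT13 replicate 3 the count of called myelin genes was 2 of 12, without ZT13 replicate 1 it was 6, and in 24 arrays it was 0.

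**Figure D3:**
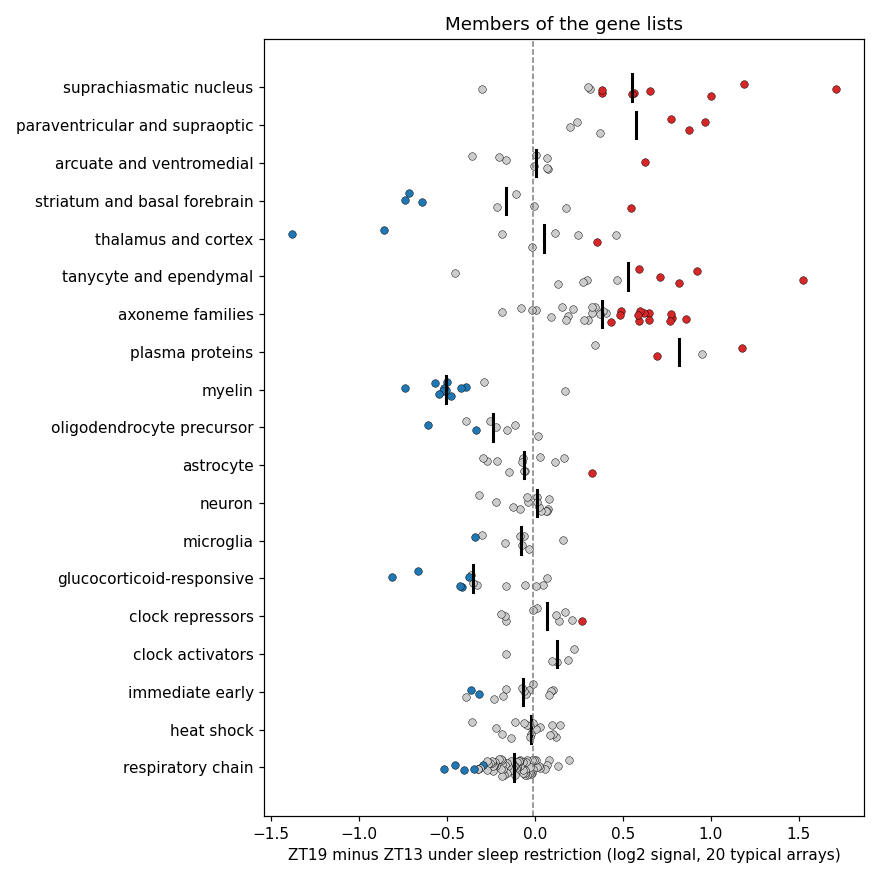
Differences at ZT19 minus ZT13 (horizontal, log2 signal, 20 typical arrays) of the tested members of 19 gene lists (rows). Red and blue points were called higher and lower, grey points were not called, black bars are list medians and the dashed line is the median of all genes at -0.0107; the bar for myelin lies at -0.50 and that for suprachiasmatic genes at 0.55.

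Other cell types showed few calls. Of 14 neuronal genes 0 were called, with a median of 0.0115. Of 12 astrocyte genes 1 rose (Sox9, a glial transcription factor, by 0.32), against 1.05% higher among all genes. Of 8 microglial genes 1 fell (C1qa, a complement subunit, by 0.34), against 1.13% lower among all genes. Sox9 kept its call only without ZT19 replicate 3, and C1qa lost it without any 1 of the 5 typical arrays. None of 11 endothelial and mural genes, 4 meningeal genes and 2 choroid plexus genes was called in either set of arrays. Of 4 tested genes of plasma proteins 2 were higher, against 1.05% of all genes. The count was 1 without ZT13 replicate 1, ZT13 replicate 3, ZT19 replicate 1 or ZT19 replicate 2, and 0 in 24 arrays. Alb, which encodes albumin, had signals of 6.97, 6.02 and 7.25 at ZT13 and of 8.30, 8.43 and 8.14 at ZT19 (1.18 ± 0.150, limma adjusted p = 0.000146). Apoa1 rose by 0.69, while Serpina1c at 0.95 and Apoa2 at 0.34 did not pass. Pltp, a phospholipid transfer protein, rose by 0.70 with close replicates, from 9.75 and 9.80 in the typical arrays to between 10.45 and 10.49. The mean signal of the 4 plasma protein genes varied widely over the series, from 5.21 in the typical control array at ZT19 to 8.91 in a restricted array at ZT1. Such transcripts are made in liver, and their part in other differences was not tested. In the single tested blood-cell gene, Alas2, the difference was -0.234, not past the test.

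Glucocorticoid-responsive genes were lower at ZT19. Of 13 tested members, 5 fell and 0 rose, against 1.13% lower among all genes, and the median was -0.35. Sgk1, a kinase gene induced by glucocorticoids (chr10:21882184-21999903), had signals of 8.25, 7.22 and 8.50 at ZT13 and of 7.51, 7.64 and 7.54 at ZT19. As in the myelin genes, the typical ZT13 arrays stood above ZT19 and the narrow one below. The difference was -0.81 ± 0.106 (limma adjusted p = 0.000191). Zbtb16 fell by 0.66, Fkbp5, a co-chaperone that dampens the glucocorticoid receptor, by 0.42, the metallothionein gene Mt2 by 0.41 and Nfkbia, an inhibitor of NF-kB, by 0.38. Tsc22d3 at -0.36, Klf9 at -0.33 and the receptor gene Nr3c1 at 0.04 did not pass. Without ZT13 replicate 1 or without ZT13 replicate 3, 2 of the 13 were called, and in 24 arrays 0. The median in 24 arrays was -0.04, and 0.01 after quantile normalization, so its sign there depends on the scaling.

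Core clock genes moved little between the times. Of 10 repressors of the loop 1 was called higher, against 1.05% of all genes. It was Nr1d1, which encodes the nuclear receptor REV-ERB alpha. Its signals were 9.74, 8.91 and 9.73 at ZT13 and 9.99, 9.99 and 10.05 at ZT19, a small rise of 0.27 ± 0.0585 (limma adjusted p = 0.0141) that was lost without ZT13 replicate 1, ZT13 replicate 3 or ZT19 replicate 3. Per1 at -0.19 ± 0.0905, Per2 at -0.17 ± 0.0927, Cry1 at -0.17 ± 0.103 and Ciart at 0.01 ± 0.108 did not pass. Per2 had signals of 7.18, 6.95 and 7.10 at ZT13 and 7.05, 6.86 and 7.02 at ZT19, so the groups overlapped. No call was made among 5 activators, 4 bZIP output factors (Dbp, Tef, Hlf and Nfil3) and 6 kinases and ligases of the clock, in either set of arrays. The lists' medians were 0.0686 for repressors and 0.128 for activators.

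Among lists of cell stress and metabolism, none of 18 heat-shock, 19 endoplasmic-reticulum chaperone, 5 cold-inducible and 20 cholesterol synthesis genes was called in the 20 or the 24 arrays, and their medians in the typical arrays ran from -0.0697 to 0.0838. Of 14 immediate early genes, Nr4a1, an orphan nuclear receptor, fell by 0.36 and Homer1, a synaptic scaffold, by 0.32, a share of 14.3% lower against 1.13% of all genes. Homer1 lost its call without any 1 of the 5 typical arrays, and Nr4a1 kept it only without ZT19 replicate 2. In 24 arrays 0 were called, and Homer1 was at 0.27. Of 74 nuclear genes of the respiratory chain 6 fell and 0 rose, led by the complex I subunits Ndufs8 (-0.52) and Ndufb11 (-0.45), a share of 8.11% lower against 1.13% of all genes. The count was 3 without ZT13 replicate 1, 2 without ZT13 replicate 3 and 0 in 24 arrays. The list's median was -0.116, and 65 of the 74 differences were negative. In 24 arrays the median was 0.08, and -0.10 after quantile normalization. Of 52 ribosomal protein genes 1 fell (1.92%), Rps3, by 0.31. It kept the call only without ZT19 replicate 1 and was at 0.09 in 24 arrays. The small non-coding RNAs Snord14e (-0.51), Rmrp (-0.37) and Rpph1 (-0.23) fell among 36 tested (8.33%). Without ZT13 replicate 1 the count was 0, and without ZT13 replicate 3 it was 1. In 24 arrays 0 were called, and the differences were 0.10, 0.27 and 0.04 in that order. Of 89 genes of voltage-gated channels and their partners 3 rose (3.37%, against 1.05% of all genes). Kcnmb1, a beta subunit of the calcium-activated BK channel, rose by 1.02. The sodium channel gene Scn9a rose by 0.44 and the calcium channel gene Cacna1e by 0.34. The count was 0 without ZT13 replicate 3, 1 without ZT13 replicate 1, ZT19 replicate 1 or ZT19 replicate 2, and 0 in 24 arrays. Kcnmb1 had signals of 5.68, 5.73 and 5.44 at ZT13, below the filter, and 6.90, 6.37 and 6.48 at ZT19. None of 29 GABA and glutamate receptor genes was called in either set of arrays.

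The same step was read in undisturbed controls, where ZT13 had 3 typical arrays and ZT19 had 1. In them 62 genes were higher (0.518%) and 503 lower (4.2%), 4.72% in all, while 24 arrays called 5.23% higher and 32.5% lower, 37.7% in all. The difference of the steps, restricted minus control, was called in 87 genes (0.727%), 74 higher (0.619%) and 13 lower (0.109%), in the typical arrays, and in 12 genes, all higher (0.1%), in 24. With quantile normalization the count was 172, of which 57.6% were higher, against 85.1% in the main setting. A single array stands for control ZT19 and has no spread of its own. The SE and p of every control step and of every difference of steps assume that it varies like the other groups. Vipr2 was at 7.95, 7.96 and 7.90 in control ZT13 arrays, 7.99 in the typical control ZT19 array, and 7.12 and 7.29 in the narrow ones. Its control step was 0.05 ± 0.154, and the steps differed by 1.66 ± 0.196 (limma adjusted p = 8.53e-05), or 2.39 in 24 arrays (adjusted p = 0.000638).

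**Figure D4:**
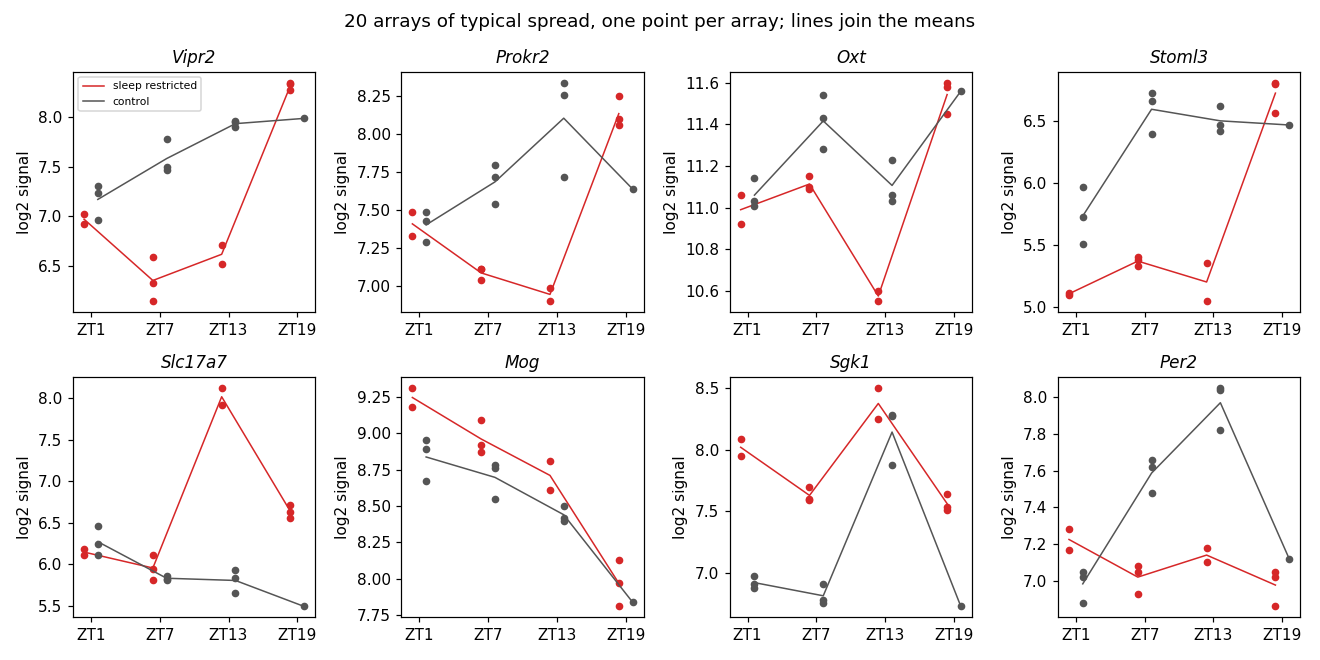
Log2 signal (vertical, own range per gene) of 8 genes at 4 times of day (horizontal) in sleep-restricted mice (red) and controls (grey), for the 20 typical arrays. Points are arrays and lines join means; control ZT19 is 1 array. In Vipr2, Prokr2 and Stoml3 the restricted arrays at ZT13 lie below the controls and at ZT19 above the control array.

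Levels of the suprachiasmatic genes were compared across the day as well. Vipr2 was at 6.97 ± 0.07 (SD, n = 2 typical arrays) at ZT1, 6.35 ± 0.23 (n = 3) at ZT7, 6.61 ± 0.13 (n = 2) at ZT13 and 8.32 ± 0.04 (n = 3) at ZT19. In controls its means were 7.17, 7.58, 7.94 and 7.99 in the same order. The mean signal of the 11 suprachiasmatic markers was 7.12 to 7.16 at ZT1 under restriction and 7.14 to 7.26 in controls, ranges that overlap. It was 6.95 to 6.98 at ZT7 under restriction and 7.53 to 7.57 in controls, and 6.98 to 7.04 against 7.54 to 7.60 at ZT13. At ZT19 it was 7.58 to 7.70 against 7.56. Stoml3 had the same order, at 5.33 to 5.41 under restriction and 6.40 to 6.73 in controls at ZT7, and at 6.57 to 6.81 against 6.47 at ZT19. The mean of the 30 axoneme genes under restriction was 6.47 to 6.53 at ZT1, 6.38 to 6.41 at ZT7, 6.65 to 6.71 at ZT13 and 7.02 to 7.14 at ZT19, and in controls 6.45 to 6.57, 6.90 to 7.05, 6.80 to 6.93 and 6.91. Steps differed for 4 of 11 suprachiasmatic markers, Vipr2, Prokr2, Rasd1 and Rgs16. They also differed for Stoml3, Hydin and Spata18 among 10 tanycyte and ependymal markers and for 0 of 30 axoneme genes.

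Slc17a7 was highest in the restricted ZT13 arrays. It was at 6.11 and 6.18 in the typical restricted arrays at ZT1, at 5.81 to 6.11 at ZT7, at 7.91 and 8.12 at ZT13 and at 6.56 to 6.71 at ZT19, and between 5.49 and 6.46 in the typical control arrays. The cholinergic gene Slc18a3 was at 8.42 to 8.53 at ZT7 under restriction and at 6.14 to 6.65 in controls. Both mark tissue outside the mediobasal hypothalamus, and the part of such tissue in the other differences was not tested. Against the single typical control array at ZT19, the median control step was -0.37 for the 12 myelin genes. It was -0.57 for the 13 glucocorticoid-responsive genes and -0.07 over all genes. Sgk1 had a control step of -1.41 ± 0.134 (adjusted p = 3.41e-06) and Mog one of -0.60 ± 0.132 (adjusted p = 0.014). Of the paraventricular genes, Oxt (0.45 ± 0.0944, adjusted p = 0.0102) and Sim1 (0.52, adjusted p = 0.00492) rose in controls too, and the steps differed for Oxt by 0.52 (adjusted p = 0.0485). A difference of steps that misses the threshold does not show that the steps were alike. For Sgk1 it was 0.60 ± 0.171 (adjusted p = 0.109) and for Mog -0.14 ± 0.168 (adjusted p = 0.761).

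For the 10 clock repressors, the median control step against the single typical array at ZT19 was -0.41, and it was -0.07 over all genes. Per2 went from 7.82, 8.04 and 8.05 in controls at ZT13 to 7.12 in the typical array and 7.11 and 7.18 in the narrow ones. Its control step was -0.85 ± 0.117 (limma adjusted p = 0.000217). The difference of the steps was 0.69 ± 0.149 for Per2 (adjusted p = 0.0352), 0.82 ± 0.175 for Ciart (adjusted p = 0.0317) and 0.81 ± 0.0944 for Nr1d1 (adjusted p = 7.71e-05). For Per1 it was 0.57 ± 0.146 (adjusted p = 0.0714). In 24 arrays these 4 missed the threshold, each with an adjusted p of 0.0513.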

How the data were processed

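RNA of the mediobasal hypothalamus was isolated with Trizol and labelled with the Affymetrix GeneChip WT Terminal kit, per the labels' protocols. Affymetrix Expression Console made the signals, per the submitters' processing notes, with version and summarization not given in the sources used here. Each of the 24 arrays has 1 column of deposited log2 signals, 1 value per probe set. Cells with a misplaced decimal point were moved back by factors of 10, 2828 of 853344 (0.331%), of which 158 concern named probe sets of the 6 arrays compared; 44 were set to missing.

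Each symbol was represented by its probe set of highest mean (annotation of the array; 1621 probe sets with several symbols and 12146 with none were left out), and genes under the 40th percentile were removed. Of 11963 genes, 11935 matched RefSeq (GRCm38.p6) by Entrez number. Group means of 8 groups were fitted with limma 3.58.1 in R 4.3.3, with a trend, to 24 arrays and to the 20 with an interquartile range of at least 2.5. Tests were 2-sided, with Benjamini-Hochberg adjustment. With 3 against 3 arrays an exact permutation test cannot go below 0.1, and with the 3 against 2 typical arrays not below 0.2. The scripts were tested on simulated data.

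Named genes are the 12 largest rises and falls called in typical arrays, with the same sign in 24 arrays and no overlap of 3 against 3, those with the smallest p in 24 arrays and in the difference of steps, and list members. The members and lists were chosen with earlier results of these data known. The axoneme and Zic families were added after their values were seen. Other settings covered arrays, normalization, weights, moderation, filters, decimals and a replicate block.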

Additional observations from a re-analysis of the deposited data

Results flagged for a closer look

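In each case below the step from ZT13 to ZT19 differed between restricted and control mice in limma's test of the difference of the steps (adjusted p under 0.05 over all genes), given as restricted minus control in log2 units. Control ZT19 is 1 typical array, so the values from 20 typical arrays rest on it. In 24 arrays, control ZT19 also holds the narrow replicates 2 and 3. For Ak7 these were at 5.15 and 5.40, against 6.70 in the typical array. Its control step was -1.19 in 24 arrays and -0.23 in the typical arrays, and that of Vipr2 was -0.47 and 0.05.

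In all 24 arrays the difference was 2.68 for Ak7, 2.41 for Fam216b, 2.39 for Vipr2, 2.27 for Prokr2, 1.98 for Stoml3, 1.79 for Spata18, 1.74 for Rasd1 and 1.40 for Hydin. In the 20 typical arrays it was 1.31 for Ak7, 1.40 for Fam216b, 1.66 for Vipr2, 1.65 for Prokr2, 1.56 for Stoml3, 0.90 for Spata18, 1.15 for Rasd1 and 0.89 for Hydin. The sets share arrays, so a like result in both is not independent support.

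Among genes of hypothalamic neurons, the typical arrays gave 0.86 for Avp, whose step was 0.20 under restriction and -0.65 in controls. They gave 0.59 for Penk, 0.57 for Sst, 0.57 for Rgs16 and 0.52 for Oxt. Clock genes had 0.82 for Ciart, 0.81 for Nr1d1, 0.75 for Dbp and 0.69 for Per2, and the immediate early gene Egr1 had 0.87. For each of these 5 the control step was negative, from -0.54 for Nr1d1 to -1.10 for Egr1.

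Genes known from striatum had large control steps. The difference was 1.83 for Meis2, whose step was -0.22 under restriction and -2.04 in controls, 1.60 for Drd1 and 1.22 for Ppp1r1b. The part of striatal tissue in them was not tested. Alb differed by 2.68, from a step of 1.18 under restriction and -1.50 in controls, and Pltp by 0.91. Kcnmb1 differed by 1.20 and the potassium channel gene Kcng3 by 0.91.

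The steps differed the other way for 13 genes. Those among the named genes were Slc17a7 (-1.07), the microRNA gene Mir99a (-0.98), the synaptic zinc transporter gene Slc30a3 (-0.84), the cholecystokinin gene Cck (-0.80) and the non-coding RNA Rian (-0.68). Nubp1 had 2.81. It was at 4.04 in the typical control array at ZT19 and at 7.38 and 7.18 in the narrow ones, so its difference rests on 1 value.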

How the results depend on the processing

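The step of 8 called genes in 24 arrays became 7 with quantile normalization, 8 with shifted decimals left blank and 6 with decimals as deposited. It became 3 without a trend, with no filter, at an adjusted p under 0.01 and with a replicate block, 5 with robust moderation, 2 with a filter at the 60th percentile or with the 12 restricted arrays, 17 with all probe sets of 1 symbol, and 4 without the narrow ZT13 array. With the 6 arrays alone it was 0, against 160 genes at an unadjusted p under 0.05, which is below a 0.05 share of the genes tested. Array weights gave 5185, from a weight fit that did not converge. Leaving out 1 array gave 2 to 19.

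The 261 genes of the typical arrays became 442 with array weights, 129 at an adjusted p under 0.01 and 401 with restricted arrays only, and 186 to 385 under the other settings. Leaving out 1 array gave 82 to 324. The difference of steps, 12 genes in 24 arrays, became 9951 with array weights, 6 with quantile normalization and 4188 with the replicate block, and 7 to 9098 without 1 array. In the typical arrays its 87 genes became 508, 172 and 55 in that order, and 35 to 168 without 1 array; control ZT19 replicate 1 could not be left out there.

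List medians moved in 24 arrays for paraventricular genes (1.04 to 0.64 with no filter and 0.57 without the narrow array) and myelin (-0.14 to -0.50 without the narrow array). In typical arrays they moved with no filter to 0.37 for paraventricular, 0.30 for ependymal and -0.02 for thalamic and cortical genes. The filter changes only which members enter. Without it 7 paraventricular genes enter against 6 tested, 13 ependymal against 10, and 9 thalamic and cortical against 8. The difference of each tested member stays the same, so the members below the filter lowered these medians. Of the 95 genes called in typical arrays and followed by name, 8 had the opposite sign in all 24 arrays: Bcan, Cck, Homer1, Rmrp, Rpph1, Rps3, Snord14e and Uqcrc1. Cck was at -0.41 in the typical arrays and 0.14 in 24, and Uqcrc1 at -0.30 and 0.22. No followed call changed sign under the other settings listed here. Whether the replicate numbers pair the samples could not be told. Deviations of same-numbered arrays correlated at 0.386, 0.202 and -0.467, and not every array correlated best with its own number. The ZT13 deviations were taken from a mean that includes the narrow array, so these values cannot decide on a pairing. With the replicate block 86 of 95 followed genes stayed called. Signals near the filter limit what can be measured.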
